A study of Mus musculus with 23 samples.

Results

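The MS4A genes encode small proteins that cross the cell membrane 4 times. They lie in a cluster on mouse chromosome 19 and are read mostly in cells of the blood and immune system. The best known member is Ms4a1, whose protein is the B cell antigen CD20, and Ms4a2 encodes a subunit of the high-affinity IgE receptor. In people, variation at the MS4A cluster is linked to the risk of Alzheimer's disease and to the level of soluble TREM2, a shed microglial receptor. In the mouse brain, Ms4a7 is used as a marker of macrophages of the brain borders and of macrophages that enter the brain from the bone marrow, and resident microglia hold little of it.

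Here 7 members, Ms4a4a, Ms4a4b, Ms4a4c, Ms4a6b, Ms4a6c, Ms4a6d and Ms4a7, were taken by gene symbol from the 53090 genes of the deposited tables. All 7 passed the filter on low counts, which left 18720 genes. The libraries are poly(A) RNA of brain microglia from female C57BL/6 mice in 4 groups. There were 7 libraries from young mice, 3 from young mice after repopulation, 5 from old mice and 8 from old mice after repopulation. Microglia were depleted with PLX5622, an inhibitor of the receptor CSF1R on which these cells depend, mixed into AIN-76A chow at 1200 ppm, and treatment controls ate the same chow with no drug. In the repopulated groups the brain had been refilled with microglia after depletion. The sources used here give neither ages nor the duration of the diet or of refilling. As for the cells, 1 protocol text describes magnetic CD11b selection with culture and another describes RNA from cells sorted by flow cytometry. The labels do not say whether each library is 1 animal or a pool, so the p-values measure only the spread between these libraries.

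Library totals ran from 43.66 to 58.19 M counts. The sample titles carry a library number. Of numbers 1 to 11, 3 were young, 2 old and 5 old repopulated. Of numbers 12 to 24, 4 were young and 3 came from each of the other groups. The labels do not call either run a batch, and values within each run are given below. All 10 microglia markers on the list used (such as P2ry12 and Tmem119) had counts in every group, and their differences are given below with the other markers. Their summed level was 17770 to 22090 CPM in young and 15700 to 18090 CPM in young repopulated libraries. In old libraries it was 6709 to 18570 CPM and in old repopulated libraries 6559 to 20560 CPM. CPM are counts per M counts, on library sizes scaled by TMM.

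In the GRCm38 annotation (GENCODE M21) Ms4a7 is a protein-coding gene on the minus strand at chr19:11321039-11336146. Ms4a4a follows on the plus strand at chr19:11375523-11392790, then Ms4a4c at chr19:11404770-11427246, Ms4a6c at chr19:11469366-11482192 and Ms4a6b at chr19:11516512-11531256, all on the plus strand. Ms4a6d lies on the minus strand at chr19:11586604-11604849. The identifier of Ms4a4b had another version in that annotation, so its gene coordinates are not given.

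Several members are close copies of each other, which bears on how far the counting could separate them. The coding sequences of Ms4a4b and Ms4a4c were identical in 91.7% of the bases aligned without a gap, those of Ms4a6b and Ms4a6c in 87.5%, those of Ms4a6b and Ms4a6d in 81.9% and those of Ms4a7 and the other 6 members in 59.6% to 65.4%. Counted over all columns of the alignment, gaps included, the values were 91.7%, 75.6%, 80.2% and 47.4% to 52.4%. Of the 50-base stretches in Ms4a6c transcripts, 51.37% also occurred in another gene, and 49.63% occurred in BE692007, a gene whose symbol is not of the family. The value of Ms4a6c is therefore uncertain, because the deposited counts are estimates that divide such reads between genes. The share was 8.19% for Ms4a4c, 3.57% for Ms4a6b, 2.54% for Ms4a6d, 2.4% for Ms4a4b, 0.31% for Ms4a7 and 0 for Ms4a4a.

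The likeness of the copies extended to the bases before their start sites. The 250 bases before the start are shown for both pairs of copies with a listed promoter, and for the 2 starts of Ms4a7, from RefSeq on GRCm38.p6, written 5′ to 3′ on the gene's strand. A promoter was listed for 6 of the 7 members, all but Ms4a6d. Capitals in the first 4 mark runs of at least 12 bases shared within the pair, and capitals in Ms4a7 mark a motif match. Ms4a4b is at chr19:11443308-11443557 and Ms4a4c at chr19:11407411-11407660, both on the plus strand. Ms4a6b is at chr19:11518309-11518558 and Ms4a6c at chr19:11469118-11469367, both on the plus strand. The starts of Ms4a7 are at chr19:11336147-11336396 and chr19:11334696-11334945, on the minus strand.
Ms4a4b: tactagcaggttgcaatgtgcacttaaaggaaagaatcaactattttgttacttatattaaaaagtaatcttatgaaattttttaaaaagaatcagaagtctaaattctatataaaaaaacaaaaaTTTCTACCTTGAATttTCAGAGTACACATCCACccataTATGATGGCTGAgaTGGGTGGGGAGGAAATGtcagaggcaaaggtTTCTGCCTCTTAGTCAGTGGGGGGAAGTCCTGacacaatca
Ms4a4c: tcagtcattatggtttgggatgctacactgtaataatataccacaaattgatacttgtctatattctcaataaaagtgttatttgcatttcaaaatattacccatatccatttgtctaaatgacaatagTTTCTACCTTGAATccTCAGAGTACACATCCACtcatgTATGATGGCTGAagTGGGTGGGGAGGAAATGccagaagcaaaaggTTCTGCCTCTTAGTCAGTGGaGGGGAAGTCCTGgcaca
Ms4a6b: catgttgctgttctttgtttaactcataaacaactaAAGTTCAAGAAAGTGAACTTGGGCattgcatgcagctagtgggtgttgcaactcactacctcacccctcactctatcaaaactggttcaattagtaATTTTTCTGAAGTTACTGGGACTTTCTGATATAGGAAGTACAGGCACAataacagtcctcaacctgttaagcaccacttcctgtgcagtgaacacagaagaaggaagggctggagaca
Ms4a6c: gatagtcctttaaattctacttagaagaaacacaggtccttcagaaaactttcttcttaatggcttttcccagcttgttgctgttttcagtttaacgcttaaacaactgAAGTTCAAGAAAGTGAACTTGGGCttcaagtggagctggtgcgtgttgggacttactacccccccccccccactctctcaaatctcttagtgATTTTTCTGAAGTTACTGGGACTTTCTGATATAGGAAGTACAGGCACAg
Ms4a7, upstream start: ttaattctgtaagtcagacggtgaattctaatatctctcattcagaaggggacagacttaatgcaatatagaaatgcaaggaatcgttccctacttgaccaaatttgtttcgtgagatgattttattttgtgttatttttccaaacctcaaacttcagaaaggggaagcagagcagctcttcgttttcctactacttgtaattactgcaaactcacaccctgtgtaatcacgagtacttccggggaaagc
Ms4a7, downstream start: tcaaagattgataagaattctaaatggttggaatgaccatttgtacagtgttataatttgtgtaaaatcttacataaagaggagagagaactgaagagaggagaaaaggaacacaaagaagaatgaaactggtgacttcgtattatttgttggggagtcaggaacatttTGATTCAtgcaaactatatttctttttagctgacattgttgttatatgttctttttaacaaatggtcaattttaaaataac
In the pair Ms4a4b and Ms4a4c, 92 of 250 bases lay in shared runs, the longest of 20 bases. In the pair Ms4a6b and Ms4a6c, 72 of 250 bases did, with an unbroken run of 48 bases. That run began 118 bases before the start of Ms4a6b and 49 bases before the start of Ms4a6c. Motifs were searched on both strands. They were GAGGAA (a core of the macrophage factor PU.1), TGANTCA (an AP-1 site) and the interferon-stimulated response element, taken as GAAA, any 2 bases and GAAA again. GAGGAA stood 64 bases before the start of Ms4a4b and 61 before that of Ms4a4c, inside the shared runs, and 23.3% of 32851 promoters of the same length held it. TGATTCA, a form of TGANTCA, stood 81 bases before 1 start of Ms4a7, and 6.7% of promoters held that motif. The interferon-stimulated response element was in none of these windows and in 3.0% of all promoters.

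The levels of different members can be compared on the deposited TPM, which is scaled by transcript length. In young libraries the order of mean TPM was Ms4a6d with 142 ± 16.2 (SD, n = 7), Ms4a6c with 121 ± 34.4, Ms4a6b with 76.6 ± 18.04, Ms4a7 with 31.7 ± 12.2, Ms4a4c with 26.5 ± 10.4, Ms4a4a with 14.7 ± 13.8 and Ms4a4b with 0.626 ± 0.599. The ranges of neighbours in this order overlapped, except that Ms4a6b stayed above Ms4a7 and Ms4a4a above Ms4a4b in every young library. Ms4a6 genes therefore made up most of the family's transcripts in young microglia, and Ms4a4b was close to the limit of detection. Its rounded count was 0 to 30 in young libraries, and the library with 0, young replicate 5, allows a level of up to 0.0641 CPM (3 counts, counting error only).

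The make-up of the family differed between the groups. Ms4a7 held 7.55% ± 1.76 (SD, n = 7) of the TPM of the 7 members in young libraries. It held 18.2% ± 7.11 (n = 3) in young repopulated, 13.8% ± 4.84 (n = 5) in old and 15.9% ± 3.19 (n = 8) in old repopulated libraries. Ms4a6d went the other way, with 35.0% ± 4.25 in young, 21.6% ± 4.17 in young repopulated, 24.5% ± 7.82 in old and 24.4% ± 4.84 in old repopulated libraries. In the repopulated and the old groups Ms4a6c had the highest mean TPM, at 257 in young repopulated, 355 in old and 354 in old repopulated libraries. These shares were not tested.

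**Figure D1:**
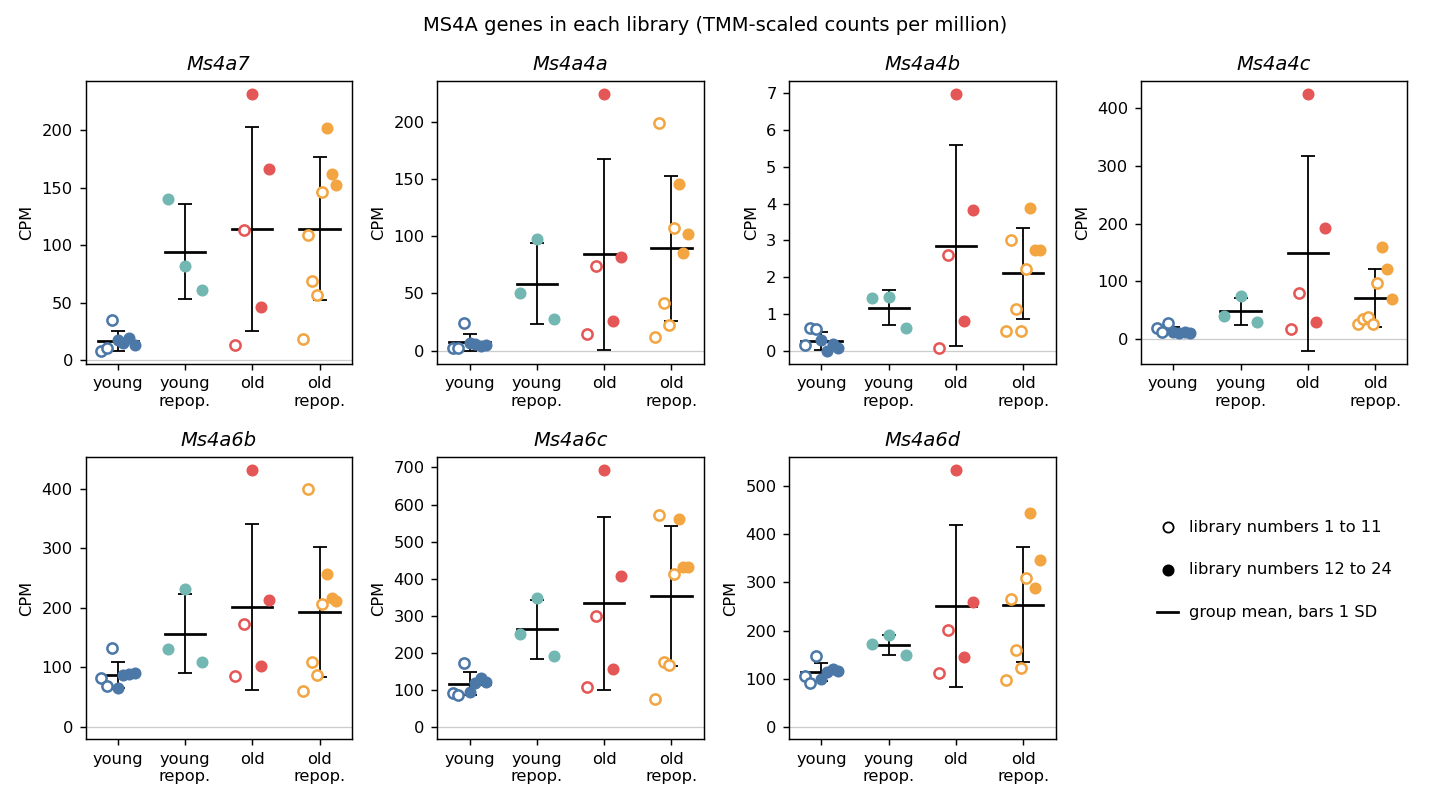
Level of each MS4A member by group, in TMM-scaled CPM (linear axis, 1 scale per gene); points are libraries, open for library numbers 1 to 11 and filled for 12 to 24, and the line and bars give the group mean and 1 SD. Young libraries lie low on the axis of each gene and mostly close together, with replicate 3 apart on the high side for Ms4a4a, Ms4a6b and Ms4a7. The old and old repopulated groups each run from the young range or below it up to levels several times higher.

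Ms4a7, the macrophage marker of the family, was low in young microglia and higher in the other 3 groups. In young libraries it ran from 8.18 to 34.9 CPM with a median of 15.2. The 3 young repopulated libraries held 140.1, 82.1 and 60.8 CPM. The 5 old libraries, replicates 1 to 5, held 13.5, 113, 231, 46.4 and 166 CPM, and the 8 old repopulated libraries ran from 18.7 to 202 CPM with a median of 128. All young repopulated libraries lay above every young library, whereas old replicate 1 and old repopulated replicate 1 lay inside the young range.

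Against young microglia, Ms4a7 was higher by 2.74 ± 0.54 on the log2 scale (SE) in old mice, by 2.47 ± 0.59 in young repopulated mice and by 2.74 ± 0.51 in old repopulated mice. The adjusted p values were 0.00812, 0.0394 and 0.00155 (edgeR's quasi-likelihood test, Benjamini-Hochberg over 18720 genes). These 3 comparisons share the 7 young libraries. Between old repopulated and old microglia the difference was 0.00 ± 0.52 with an adjusted p of 1.0.

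Ms4a4a, whose human counterpart is the MS4A gene most studied in relation to TREM2, followed the same order of groups. Its level was 2.28 to 23.7 CPM in young libraries with a median of 4.80. It was 50.6, 97.4 and 28.03 CPM in young repopulated libraries and 14.2, 74.1, 225, 25.8 and 82.2 CPM in old libraries. Old repopulated libraries ran from 11.8 to 199 CPM with a median of 93.5. Again no young repopulated library overlapped the young group. Replicate 1 of both old groups and old repopulated replicate 4 (22.5 CPM) stayed within it. On the log2 scale Ms4a4a was higher than in young by 3.56 ± 0.71 in old (adjusted p = 0.00861, edgeR), by 3.03 ± 0.76 in young repopulated (adjusted p = 0.0465) and by 3.64 ± 0.68 in old repopulated mice (adjusted p = 0.00155).

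Ms4a4b and Ms4a4c are the pair of close copies. Ms4a4b is known mainly from T cells. It ran from 0 to 0.611 CPM in young libraries with a median of 0.176. It held 1.43, 1.47 and 0.618 CPM in young repopulated and 0.0802, 2.60, 6.98, 0.820 and 3.83 CPM in old libraries. In old repopulated libraries it ran from 0.531 to 3.88 CPM with a median of 2.48. Every value of Ms4a4b was low, with at most 316 counts in a library, and the lowest old library, replicate 1, held 4 counts. Ms4a4b was higher than in young by 3.38 ± 0.81 on the log2 scale in old (adjusted p = 0.0247, edgeR) and by 2.94 ± 0.76 in old repopulated mice (adjusted p = 0.0123). The difference of 2.10 ± 0.88 in young repopulated mice did not pass (adjusted p = 0.258).

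Ms4a4c ranged widely among old libraries. It ran from 10.2 to 28.5 CPM in young libraries with a median of 13.2, and young repopulated libraries held 39.6, 75.1 and 29.7 CPM. The old libraries held 17.2, 79.4, 424, 30.6 and 192 CPM, and the old repopulated libraries ran from 26.0 to 159.8 CPM with a median of 54.4. Old replicates 3 and 5 were thus above every old repopulated library. Ms4a4c was higher than in young by 3.27 ± 0.61 on the log2 scale in old mice (adjusted p = 0.00686, edgeR) and by 2.22 ± 0.56 in old repopulated mice (adjusted p = 0.0103). In young repopulated mice the difference was 1.65 ± 0.66 (adjusted p = 0.236). Between old repopulated and old mice Ms4a4c had the lowest estimate of the 7 members, -1.05 ± 0.56, which did not pass (adjusted p = 0.559).

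The 3 Ms4a6 genes were already read at high levels in young microglia and differed less between groups. Ms4a6c ran from 84.0 to 173 CPM in young libraries with a median of 118. Young repopulated libraries held 249.5, 349 and 191 CPM, old libraries 107.5, 299.8, 694, 157 and 406 CPM, and old repopulated libraries 73.8 to 571 CPM with a median of 421. Ms4a6d ran from 90.2 to 147 CPM in young libraries, held 171, 191 and 148 CPM in young repopulated and 112, 201, 535, 146 and 259 CPM in old libraries, and ran from 96.6 to 445 CPM in old repopulated libraries with a median of 277. Both genes were above all young libraries in every young repopulated library, Ms4a6d by a margin under 1 CPM in the lowest. Ms4a6b was the only member whose young and young repopulated values overlapped, at 65.5 to 132 CPM against 129.7, 231 and 108 CPM. It held 84.3, 172, 432, 102 and 213 CPM in old libraries and 59.2 to 399 CPM in old repopulated libraries with a median of 208.

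For the Ms4a6 genes only the comparison of old repopulated with young microglia passed. There Ms4a6c was higher by 1.61 ± 0.39 on the log2 scale (adjusted p = 0.00873, edgeR), Ms4a6d by 1.17 ± 0.31 (adjusted p = 0.0138) and Ms4a6b by 1.15 ± 0.36 (adjusted p = 0.0343). Between old and young microglia the differences were 1.52 ± 0.42 for Ms4a6c (adjusted p = 0.0529), 1.15 ± 0.34 for Ms4a6d (adjusted p = 0.0687) and 1.20 ± 0.40 for Ms4a6b (adjusted p = 0.112). Between young repopulated and young microglia they were 1.19 ± 0.48, 0.59 ± 0.39 and 0.84 ± 0.45 in the same order, with adjusted p from 0.242 to 0.525.

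**Figure D2:**
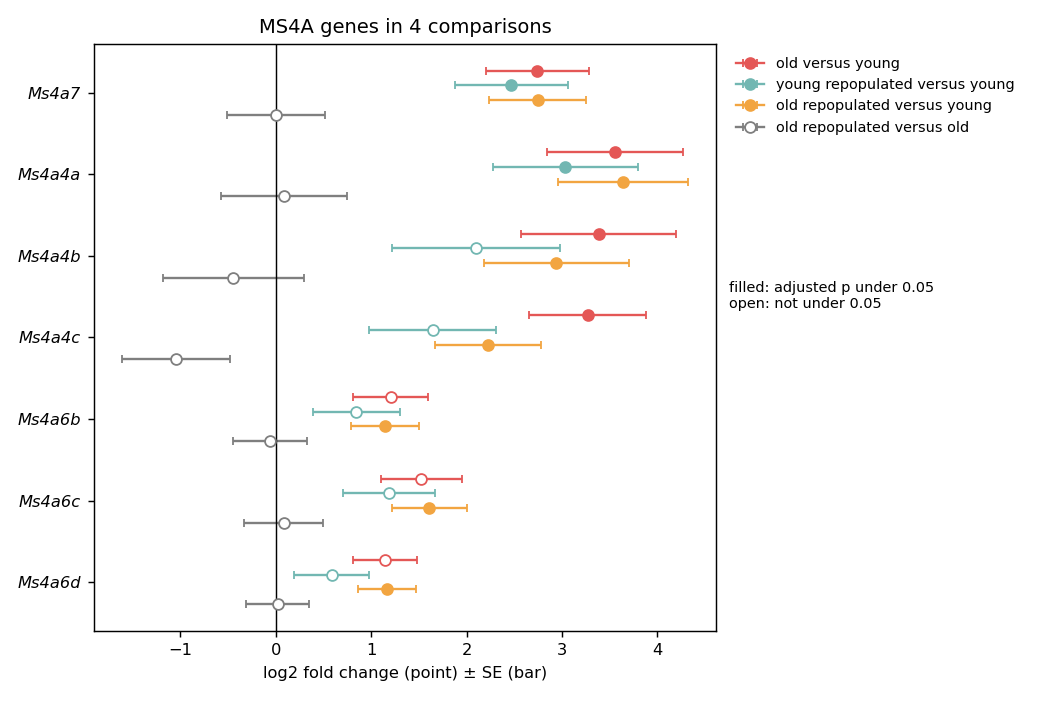
Log2 fold change (points) with its standard error (bars) for each MS4A member in 4 comparisons, filled where the edgeR adjusted p was under 0.05. The 3 comparisons with young microglia, which share the young libraries, lie to the right of 0 for all 7 members, and old repopulated against old lies around 0 except for Ms4a4c at -1.05.

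Between old and young microglia, 4 of 7 members were called higher, Ms4a7, Ms4a4a, Ms4a4b and Ms4a4c, and none lower. The share of all genes called higher was 2.60%. The median log2 difference of the members was 2.74, against -0.01 for all genes tested. Old replicate 3 had the highest value of every member in the old group, and without that library only Ms4a4c was called (adjusted p = 0.0489), with adjusted p of 0.0525 for Ms4a7, 0.0591 for Ms4a4a and 0.153 for Ms4a4b. Ms4a4b also lost its call without old replicate 5 or without young replicate 1, 4, 6 or 7. Without old replicate 1, all 7 members were called. With all libraries, 0 of 7 members separated the groups fully, as 1.43% of genes did.

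Between young repopulated and young microglia, 2 of 7 members were called higher, Ms4a7 and Ms4a4a, against 0.828% of all genes. The median difference of the members was 1.64, against -0.04 for all genes. All young repopulated libraries were above all young libraries for 6 of 7 members, against 5.97% of all genes. For Ms4a4b the lowest young repopulated library held 0.618 CPM (28 counts) and the highest young library 0.611 CPM (30 counts). Both calls were close to the threshold. Each was lost without any single young repopulated library and without any single young library other than replicate 3, with adjusted p of up to 0.239 for Ms4a7 and 0.266 for Ms4a4a. The Ms4a4a call was also lost without old replicate 2 or 5, or without old repopulated replicate 3, 5, 6, 7 or 8. With the run of library numbers as a block the adjusted p was 0.0818 for Ms4a7 and 0.0834 for Ms4a4a.

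Between old repopulated and young microglia, all 7 members were called higher, against 9.29% of all genes, with a median difference of 2.22 against -0.02. As for full separation of the groups (0.983% of all genes), no member reached it. Old repopulated replicate 1 lay within the young range for 5 members and below the lowest young library for Ms4a6b and Ms4a6c. Old repopulated replicate 4 lay within the young range for every member but Ms4a7. Ms4a7 came nearest, with 7 of 8 old repopulated libraries above the highest young library. In the fits that left out 1 library, 6 members kept an adjusted p under 0.05 each time. Ms4a6b lost its call without young replicate 1, 2, 4, 5, 6 or 7 or without old repopulated replicate 2, 5, 6, 7 or 8 (adjusted p up to 0.0786).

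**Figure D3:**
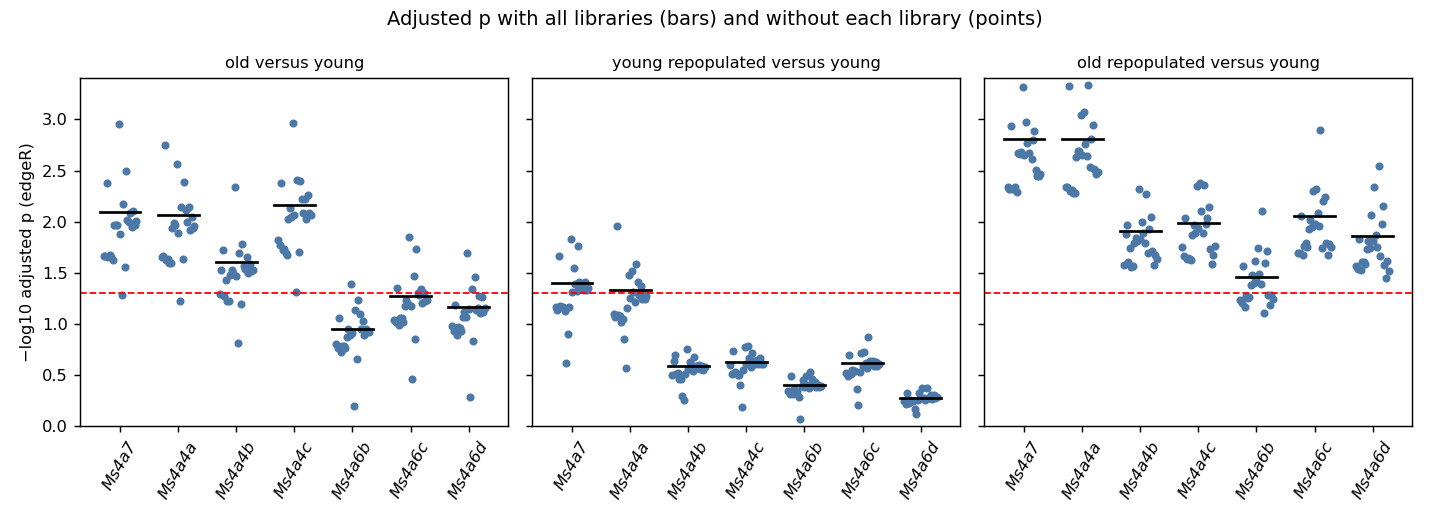
Adjusted p of each member as −log10 (edgeR), with all 23 libraries (bars) and after leaving out each library in turn (points); the dashed line is the threshold of 0.05. In old repopulated against young microglia the points of 6 members all stay above the line and those of Ms4a6b fall on both sides, while in young repopulated against young microglia only Ms4a7 and Ms4a4a reach it.

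Between old repopulated and old microglia, 0 of 7 members were called, and 0.278% of all genes were called in either direction. No member had an unadjusted p under 0.05 (edgeR), DESeq2 called 0 members, and the median difference was 0.00. The intervals are wide: Ms4a7 had a standard error of 0.52 around a difference of 0.00, so a p above the threshold does not show that the groups are equal. Between old repopulated and young repopulated microglia, 0 of 7 members were called by edgeR or DESeq2 and none had an unadjusted p under 0.05. All 7 estimates were positive, with a median of 0.58 against 0.05 for all genes. Among all genes edgeR called 0% there (unadjusted p under 0.05 in 2183), and DESeq2 called 92.

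The interaction compares the repopulation difference in old mice with that in young mice. All 7 estimates were negative, which follows from the values above: the young repopulated libraries were above the young ones, and the differences between old repopulated and old libraries were near 0 or negative. Ms4a7 had an interaction of -2.46 ± 0.79 (unadjusted p = 0.00469, adjusted p = 0.435, edgeR), Ms4a4a of -2.95 ± 0.997 (adjusted p = 0.461), Ms4a4c of -2.69 ± 0.87 (adjusted p = 0.436) and Ms4a4b of -2.54 ± 1.15 (adjusted p = 0.574). These 4 had an unadjusted p under 0.05 and 0 of 7 were called. Among all genes edgeR called 0% (unadjusted p under 0.05 in 1542), and DESeq2 called 46, none of them members.

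Within library numbers 12 to 24 the groups separated fully. There all 7 members were higher in every young repopulated, every old and every old repopulated library than in any young library. Genes with this separation made up 12.6%, 13.3% and 24.6% of the table in the 3 comparisons. Ms4a7 was 13.65 to 19.2 CPM in the 4 young libraries of this run, and 46.4 CPM was its lowest value in the other libraries. A fit within this run called all 7 members higher in old than in young microglia (10.4% of genes) and in old repopulated than in young microglia (21.9%). It called Ms4a7, Ms4a4a and Ms4a4b in young repopulated against young microglia (5.41%), with log2 differences of 2.55 ± 0.41, 3.47 ± 0.59 and 3.14 ± 0.81. It called the interaction of Ms4a7 at -2.32 ± 0.59 (adjusted p = 0.0334, edgeR) and of Ms4a4a at -3.46 ± 0.83 (adjusted p = 0.0268), where 4.75% of genes were called lower. It also called Ms4a6d higher in old repopulated than in young repopulated microglia, by 1.06 ± 0.33 (adjusted p = 0.0262), where 18.5% of genes were.

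Within library numbers 1 to 11 no member was called. For the comparisons of old and of old repopulated with young microglia, all differences were positive, Ms4a7 by 1.82 ± 0.90 (adjusted p = 1.0) and 2.16 ± 0.80 (adjusted p = 0.406, edgeR). Of the whole table, 0.00533% of genes were called higher in each. This run holds old replicate 1 and old repopulated replicates 1 and 4, which had young-like levels of most members. It also holds young replicate 3, which had the highest young level of every member but Ms4a4b. It holds no young repopulated library.

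The remainder of the family was mostly silent. Of 12 other Ms4a genes in the tables, 3 passed the filter. Ms4a10, Ms4a13, Ms4a15, Ms4a18 and Ms4a5 had 0 counts in all 23 libraries, which allows up to 0.0544 to 0.0689 CPM in a library. Ms4a2, Ms4a3, Ms4a4d and Ms4a12 stayed at or under 0.332 CPM in every library. Ms4a1, the gene of CD20, reached 0.436 CPM and was not called in any comparison. Ms4a14 moved with the 7 members, at 3.37 ± 1.77 CPM (SD, n = 7) in young, 18.4 ± 8.47 (n = 3) in young repopulated, 27.8 ± 22.4 (n = 5) in old and 23.04 ± 17.2 (n = 8) in old repopulated libraries. It was called higher than in young in old (3.05 ± 0.65 on the log2 scale, adjusted p = 0.0122, edgeR) and old repopulated mice (2.77 ± 0.61, adjusted p = 0.00473), and its adjusted p in young repopulated mice was 0.0853. Ms4a8a was called in old repopulated against young mice (3.63 ± 1.09, adjusted p = 0.0283, edgeR) with at most 10.7 CPM in an old repopulated library.

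Tmem176a and Tmem176b, which encode related proteins outside the cluster on chromosome 6, were not called in any comparison. These genes overlap on opposite strands. Of the list of genes known as partners of the family, Trem2, its adaptor Tyrobp, Fcer1g, Clec7a and the sheddases Adam10 and Adam17 passed the filter, and Fcer1a did not. Clec7a, the beta-glucan receptor dectin-1, was higher than in young microglia by 0.63 ± 0.14 on the log2 scale in old mice (adjusted p = 0.0176, edgeR), by 1.34 ± 0.16 in young repopulated mice (adjusted p = 0.000112) and by 1.09 ± 0.13 in old repopulated mice (adjusted p = 3.9e-05). Trem2 differed from young by -0.32 ± 0.24, 0.25 ± 0.28 and -0.20 ± 0.21 in the same order and was not called.

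The members rose and fell together from library to library. Over the 23 libraries, Spearman's rho of log2 CPM between members ran from 0.831 (Ms4a4c with Ms4a6b) to 0.984 (Ms4a6c with Ms4a6d). The points share the group structure, the library and, for the copies, some reads. With group means removed, Pearson's r ran from 0.705 (Ms4a4b with Ms4a6b) to 0.968 (Ms4a6b with Ms4a6c). The genes most like Ms4a7, among 9634 genes with a mean of at least 5 CPM, were Dram1 (rho 0.975), AB124611 (0.968), Mapkapk3, Mdfic and Sestd1 (0.967 each). The most like Ms4a4a was Nlrc4 (0.973), the most like Ms4a4b was Runx3 (0.962) and the most like Ms4a4c was Plbd1 (0.965). Stom (0.956) and Apobec1 (0.955) were the most like Ms4a6b. Apobec1 was also the most like Ms4a6c (0.987), and Mpp1 was the most like Ms4a6d (0.981).

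Markers of other cells moved with the members in part. In bulk RNA, fewer cells of a type and less RNA per cell cannot be told apart. In old against young microglia, 5 of 10 monocyte markers (among them Ly6c2, Ccr2 and Plac8), 4 of 8 neutrophil markers, 3 of 6 dendritic cell markers, 1 of 10 border macrophage markers (F13a1) and 1 of 10 T and NK cell markers were called higher. Of all genes tested, 2.60% were called higher there. In old repopulated against young microglia the counts were 8 monocyte, 4 neutrophil, 3 dendritic, 5 border macrophage and 1 T and NK cell marker. The share of all genes called higher was 9.29%. The 5 border macrophage markers were Cbr2, Clec4n, F13a1, Mrc1 and Pf4. Cd209f and Cd163 of that list had negative estimates, -2.115 ± 0.917 and -0.734 ± 0.382, and were not called. Of the 10 T and NK cell markers, 7 passed the filter, and 1 call among 7 is too few to tell from the 9.29%. All 10 microglia markers had negative estimates in both comparisons, with median log2 differences of -0.6 and -0.81. In old microglia Fcrls was called lower, where 44 of 18720 genes were. In old repopulated microglia Fcrls, Olfml3 and P2ry12 were called lower, where 1108 of 18720 genes were. In young repopulated against young microglia 2 of 10 were positive and none was called. The summed monocyte markers were 273.7 to 1679 CPM in young, 507.9 to 4759 CPM in old and 377.8 to 7838 CPM in old repopulated libraries. The lowest value of both old groups was again replicate 1, and old replicate 3 was the highest of its group. The part of these cells in the member differences was not tested.

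In young repopulated against young microglia, none of the 10 monocyte markers and none of the 10 border macrophage markers was called (edgeR, smallest adjusted p 0.0852 and 0.223). The estimates were positive for 9 of 10 monocyte markers, with a median log2 difference of 1.23, and for 7 of 10 border macrophage markers, with a median of 1.07, against -0.04 for all genes. The highest estimate was 3.39 ± 0.98 among the monocyte markers (Ly6c2) and 1.92 ± 0.76 among the border macrophage markers (Clec4n). The lowest border macrophage estimates were -3.71 ± 1.52 for Cd209f and -1.29 ± 0.55 for Cd163. The monocyte sum of 638.4 to 1155 CPM and the border macrophage sum of 1324 to 1528 CPM lay inside the young ranges of 273.7 to 1679 CPM and 1021 to 1669 CPM. A sum is set mostly by its most abundant genes, and Fn1, a monocyte marker on the list, differed by -0.50 ± 0.69. The dendritic sum did not overlap, at 14.61 to 31.22 CPM against 5.11 to 11.5 CPM, with 1 of 6 markers called, Cd209a. The T and NK cell sum was 3.112 to 5.755 CPM against 0.594 to 2.525 CPM, with no marker called and Cd3g, Trbc2 and Nkg7 at 0 in every young library. The neutrophil sum was 64.66 to 150.0 CPM against 10.28 to 82.11 CPM, with Mmp8 called. Of all genes, 0.828% were called higher in this comparison. The part of these markers in the higher Ms4a7 was not tested.

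Old repopulated replicate 2 differed between members. It had the highest Ms4a4a (199 CPM), Ms4a6b (399 CPM) and Ms4a6c (571 CPM) of its group, while Ms4a7 (109 CPM), Ms4a4c (34.3 CPM) and Ms4a6d (265 CPM) were below the group's median. It had a T and NK cell sum of 0.7515 CPM, inside the young range, and an interferon response sum of 480.6 CPM, the lowest of all 23 libraries. Its monocyte sum of 1504 CPM was also inside the young range, while its border macrophage sum of 2460 CPM, its dendritic sum of 17.7 CPM and its neutrophil sum of 181.3 CPM were above the young ranges and its microglia sum of 10370 CPM was below. The part of these markers was not tested. B cell markers did not move with the members: 0 of 6 were called higher in any comparison, and Cd79b was lower in young repopulated and in old repopulated than in young microglia. The interferon response list of 14 genes had 0 called higher in old against young microglia (edgeR, smallest adjusted p 0.0567), but 14 of 14 estimates were positive, with a median log2 difference of 0.81 against -0.01 for all genes. Its sum was 3178 CPM in old replicate 3 and 2689 CPM in old replicate 5, against at most 1597 CPM in young libraries, and these libraries also had the highest Ms4a7 and Ms4a4c of the old group. In old repopulated against young microglia 5 of 14 were positive, and Cxcl10 and Ifit2 were called lower, where 1108 of 18720 genes were. In old repopulated against old microglia 0 of 14 were positive, with a median of -1.1, and Ifit2 and Ifit3 were called lower. Of all genes, 0.278% were called there in either direction. Of the members, 4 of 7 had positive estimates in that comparison and none was called. The part of the interferon response in the member differences was not tested.

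**Figure D4:**
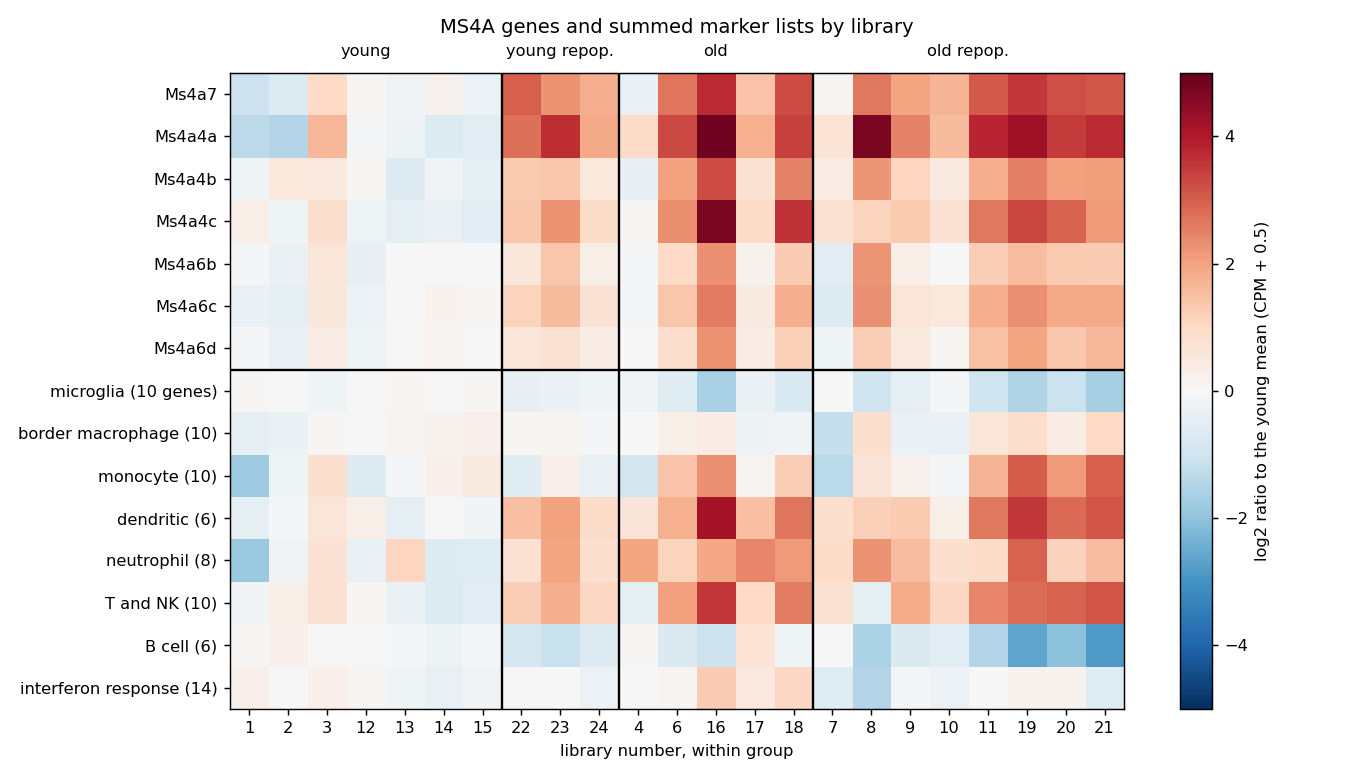
Log2 ratio of each library to the young mean for the 7 members (top) and for summed marker lists (bottom), on CPM with 0.5 added; columns are libraries by number within group, red is higher and blue lower than young. The members are above the young mean in all 3 young repopulated libraries, from 0.312 (Ms4a6b, library 24) to 3.674 (Ms4a4a, library 23). There the monocyte and border macrophage sums lie inside the young range, while 9 of 10 and 7 of 10 of the single markers had positive differences. Libraries 4 and 7, the first of the old and of the old repopulated group, lie on both sides of the young mean. Their members run from -0.411 to 0.940 and from -0.646 to 0.754.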

How the data were processed

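Reads were processed by the authors. Per the submitters' processing notes, the tools were FastQC 0.11.5, STAR, RSEM and limma with build GRCm38. The annotation they used is not stated. Libraries were stranded and poly(A)-selected, with 2.4 to 147 ng of input RNA and single reads of 50 nt, per the labels' protocols. The authors deposited 1 table per library with expected counts, estimates that need not be whole (87.26% were whole within 1e-06), and TPM. Expected counts were rounded and analysed in R 4.3.3 with edgeR 4.0.16 (filterByExpr, TMM, 1 quasi-likelihood model of 23 libraries, 6 contrasts, Benjamini-Hochberg adjusted p under 0.05). On simulated data for old versus young, 100% of 100 genes changed by 1 and of 100 changed by 2 on the log2 scale were recovered. There were 12 false calls among 17157 genes. The simulation gave every gene the same spread, no difference between runs of library numbers, and changes only in genes above a set level. The members varied more in old libraries, Ms4a4c for example at 149 ± 169 CPM (SD, n = 5). The recovery therefore does not give the power for the members. Log CPM used a prior count of 2. The standard errors of log2 differences were not model output: each is the size of the difference divided by the square root of the test's F. DESeq2 1.42.0, voom (limma 3.58.1), RLE, no filter, a block, runs of library numbers and leaving out each library were alternatives. The genes named are the 7 members, the other Ms4a genes, Tmem176a and Tmem176b, the marker and partner lists, and the genes most like each member (3, and 5 for Ms4a7, by Spearman's rho). Members and lists were chosen with earlier results of these data known. Of 21 family identifiers, 19 had the same version in GENCODE M21. Promoters came from RefSeq.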

Additional observations from a re-analysis of the deposited data

Results flagged for a closer look

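By Dixon's test, the highest and lowest CPM of every member were compared with the other libraries of each group of 4 or more. This gave 21 groups of values. For normally distributed values chance flags about 1 in 20 such groups. CPM need not be normal, and the members rose and fell together, so the 21 groups are not independent. Young replicate 3 (library number 3) stood apart on the high side for 3 members. It held 23.67 CPM of Ms4a4a, where the next young library held 6.611 CPM, 132.1 CPM of Ms4a6b, where the next held 89.28 CPM, and 34.88 CPM of Ms4a7, where the next held 19.18 CPM. The same library had the highest monocyte marker sum of the young group, 1679 CPM, and the lowest microglia marker sum, 17770 CPM. The part of these markers in the higher values was not tested. Without this library Ms4a7 and Ms4a4a were still called in all 3 comparisons with young microglia.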

How the results depend on the processing

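The 7 members had positive differences from young microglia in old, young repopulated and old repopulated mice under every alternative run. The number called changed. For old versus young it was 4, with 7 under voom with sample quality weights, 0 within library numbers 1 to 11, 7 within 12 to 24, and 1 to 7 when 1 library was left out. DESeq2 called 6. For young repopulated versus young it was 2, with 1 under no filter, 4 under voom, 0 with the library number as a block, 6 when only these groups were fitted, and 0 to 2 when 1 library was left out. For old repopulated versus young it was 7, with 0 within numbers 1 to 11 and 6 to 7 when 1 library was left out. Within numbers 12 to 24 it was 1 for old repopulated versus young repopulated and 2 for the interaction, against 0 in both, and leaving out 1 library left these and old repopulated versus old at 0. The fits within a run held 10 libraries (numbers 1 to 11) or 13 libraries (numbers 12 to 24). The cause of these changes was not tested. Signs changed only in old repopulated versus old, where no member was called. The log2 difference of Ms4a7 was -0.006 under RLE size factors and under DESeq2. That of Ms4a4b was 0.24 under voom and 0.16 within numbers 1 to 11. That of Ms4a6b was 0.17 under voom, 0.041 with the block and 0.43 within numbers 1 to 11. When 1 library was left out, the log2 difference ran from -0.193 to 0.864 for Ms4a4a, from -0.762 to 0.199 for Ms4a4b, from -0.296 to 0.433 for Ms4a6b, from -0.146 to 0.54 for Ms4a6c, from -0.17 to 0.501 for Ms4a6d and from -0.286 to 0.431 for Ms4a7, with the highest value without old replicate 3. No paired analysis was possible because the labels give no replicate numbers shared between groups.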
